A study of Paracentrotus lividus with 19 samples.

Results

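ENDO16 is a marker gene of the gut rudiment in sea urchin embryos, and EVE a gene of cells that contribute to the hindgut and neighbouring ectoderm. Both were represented, by 4 of the 63389 features together, in a table of transcript counts from whole embryos of Paracentrotus lividus. Members were picked out by a rule on the name, after the prefix Sina_ and the contig suffix had been removed from each feature name. The names themselves were chosen with earlier results of these data known. The rule found 1 feature named EVE and 3 features named ENDO16, ENDO16.1.3, ENDO16.2.3 and ENDO16.3.3, where the suffix numbers the contig. All 4 were among the 62865 features that passed the filter on low counts.

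Fertilized eggs were exposed for 24 h to ZnO particles, to the zinc salt ZnSO4, to Fe2O3 particles or to the iron salt FeCl3, or were left unexposed, and poly(A) RNA of the whole embryos was then sequenced. By the labels, ZnO was dosed at 1e-05 M (0.8 mg of zinc per L) and Fe2O3 at 5e-05 M (4 mg of iron per L), and each salt was matched to its particle by metal concentration. The molar and the mass figures do not match each other and are given as stated. There were 3 ZnO, 4 ZnSO4, 4 Fe2O3, 4 FeCl3 and 4 control libraries, in sets that the titles name F1, F2 and F3. Set F1 holds 2 libraries per treatment (1 for ZnO), and F2 and F3 hold 1 each. What a set is, and whether its libraries were separate cultures, is not stated, so the p-values reflect only the variation among these samples, which may be technical. Library totals ran from 24438369 to 32801015 counts.

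ENDO16 encodes a large secreted glycoprotein. In the sea urchin Strongylocentrotus purpuratus it is first transcribed in the vegetal plate, then in the invaginating archenteron and later in the midgut, and its control region is a textbook case of modular gene regulation. EVE encodes a homeobox transcription factor of the even-skipped family, which in the same species is transcribed on the vegetal side of the embryo in cells that contribute to the hindgut and the neighbouring ectoderm. Zinc has long been used in sea urchin embryology as an animalizing agent, one that reduces vegetal fates. In RNA from whole embryos, fewer cells of a type and less RNA per cell cannot be told apart.

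Both genes had their lowest levels of the series in the F1 ZnSO4 libraries. Both also stood lower with ZnSO4 than with ZnO in every set. In F2 both zinc libraries stood above the control for ENDO16, while for EVE the ZnSO4 library stood below it. EVE was read 1462 to 5974 times per library and each ENDO16 feature 1630 to 8447 times. Levels are given as CPM (counts relative to library size, scaled by the trimmed mean of M-values), and since transcript lengths are not known, levels of different genes are not compared. In set F1, EVE stood at 98.2 CPM in the ZnO library, at 47.5 and 56.3 CPM in the ZnSO4 libraries, at 90.9 and 97.4 CPM in the Fe2O3 libraries, at 103.7 and 94.8 CPM in the FeCl3 libraries and at 104.2 and 103.3 CPM in the control libraries. The ZnSO4 libraries of F1 were the lowest for EVE in the whole series, and the other treatments of that set lay close together. In set F2, EVE stood at 223.0 CPM with ZnO, 178.6 with ZnSO4, 207.6 with Fe2O3, 190.8 with FeCl3 and 209.6 in the control. In set F3 it stood at 159.1 CPM with ZnO, 106.0 with ZnSO4, 127.6 with Fe2O3, 130.5 with FeCl3 and 124.4 in the control. ZnSO4 gave the lowest EVE level in every set, whereas the ZnO library was the highest in F2 and F3 and the third highest of 5 treatments in F1.

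The summed ENDO16 level in set F1 was 349.0 CPM in the ZnO library, 172.2 and 190.1 CPM in the ZnSO4 libraries, 523.0 and 488.4 CPM in the Fe2O3 libraries, 511.5 and 469.2 CPM in the FeCl3 libraries and 489.2 and 555.8 CPM in the control libraries. Both zinc treatments lay below every iron and control library of that set. In set F2 the order was the opposite, with 881.6 CPM in ZnO and 757.5 in ZnSO4, against 659.6 in Fe2O3, 615.3 in FeCl3 and 637.6 in the control. In set F3 the 5 libraries lay close together, at 713.8 CPM in ZnO, 650.4 in ZnSO4, 655.3 in Fe2O3, 639.5 in FeCl3 and 692.8 in the control.

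**Figure D1:**
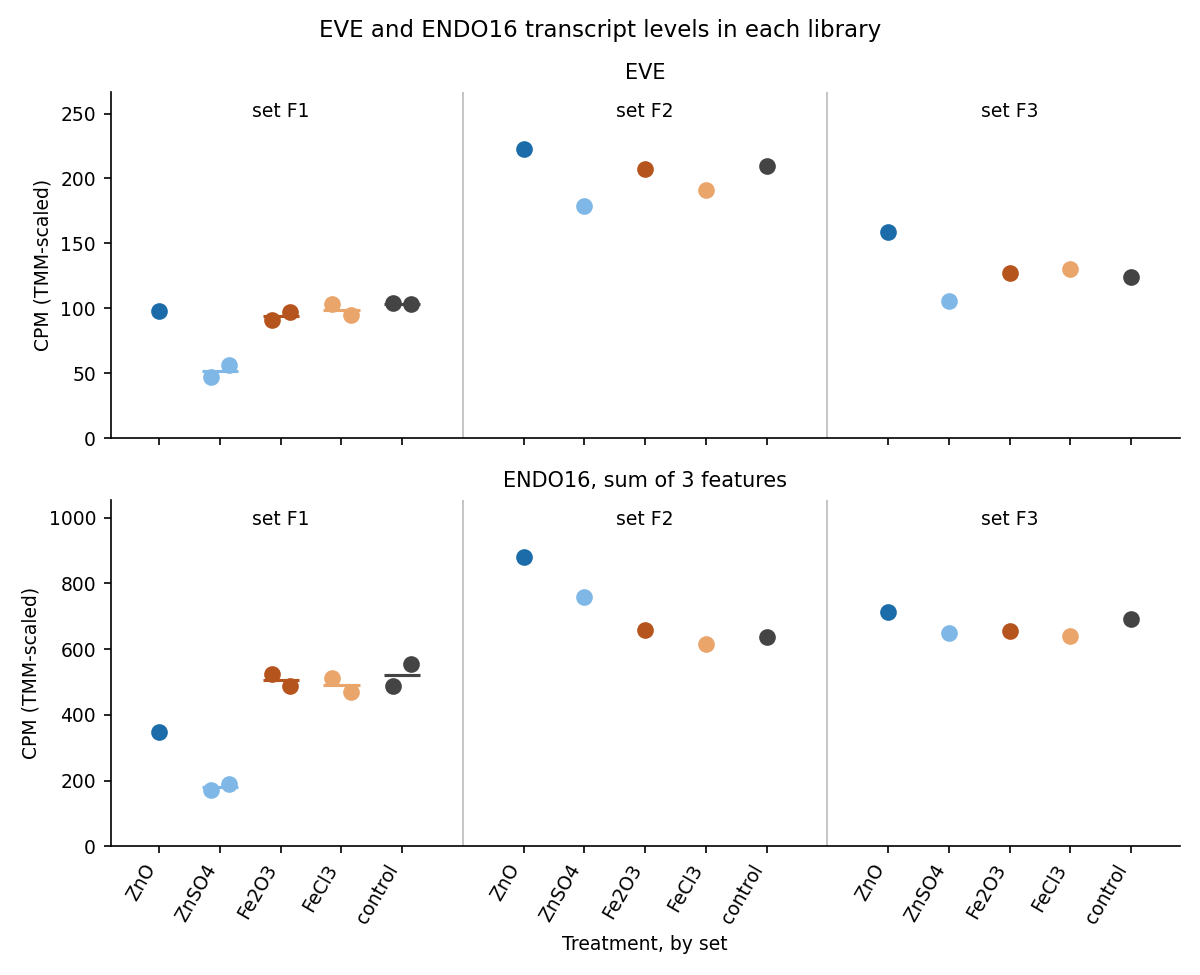
Levels of EVE (top) and of the summed ENDO16 features (bottom) in CPM on linear axes that start at 0; each point is 1 library, grouped by set and treatment, and a short line marks the mean of 2 libraries. The F1 ZnSO4 libraries are the lowest of the series for both genes, at 47.5 and 56.3 CPM for EVE and 172.2 and 190.1 CPM for ENDO16.

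Averaged over the libraries of a treatment, EVE was at 160.1 ± 62.4 CPM with ZnO (SD, n = 3), 97.1 ± 60.1 with ZnSO4, 130.9 ± 53.6 with Fe2O3, 130.0 ± 43.3 with FeCl3 and 135.4 ± 50.4 in controls (n = 4 each). Summed ENDO16 averaged 648.1 ± 272.3 CPM with ZnO (n = 3), 442.5 ± 305.0 with ZnSO4, 581.6 ± 88.8 with Fe2O3, 558.8 ± 81.6 with FeCl3 and 593.8 ± 89.7 in controls (n = 4 each). These means pool sets of different level, and ZnO has 1 of its 3 libraries in F1, the set with the lowest levels, where every other group has 2 of 4. As they stand, the means of both genes run from ZnO through control, Fe2O3 and FeCl3 to ZnSO4. With set in the model, EVE with ZnO lay above control (log2 difference 0.08) but ENDO16 with ZnO lay below it (-0.11), and neither passed. All 5 treatments overlapped in their libraries. The spread of ENDO16 was about as wide in the iron groups as in controls and wider in both zinc groups.

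Much of that spread came from the sets. Of the total variance of log2 CPM, the set took 75.0% for EVE and 47.9% for summed ENDO16, the treatment 17.9% and 21.2%, and the combination of set and treatment 6.40% and 30.3%. The libraries of 1 treatment within F1 accounted for 0.654% and 0.581%. EVE averaged 201.9 ± 17.3 CPM in F2 (SD, n = 5) and 129.5 ± 19.1 in F3 (n = 5), against 88.5 ± 21.3 in F1 (n = 9), and the levels of F2 lay above those of F3 and F1 without overlap. Summed ENDO16 averaged 710.3 ± 110.0 CPM in F2 and 670.3 ± 31.5 in F3, against 416.5 ± 145.1 in F1, and every library of F2 and F3 was above every library of F1. With treatment in the model, EVE was higher in F2 than in F1 by 1.21 in log2 units (SE 0.09, adjusted p = 1.15e-11) and by 0.56 in F3 than in F1 (adjusted p = 5.19e-06), and F3 was lower than F2 by a log2 difference of -0.65 (adjusted p = 4.72e-06). ENDO16 was higher by 0.86 in F2 and by 0.76 in F3 than in F1 (adjusted p = 1.16e-04 and 4.01e-04), while F3 and F2 differed by -0.10 (adjusted p = 0.673). This model takes each treatment effect as equal in all sets, so the low F1 zinc libraries of ENDO16 enter its set differences. The same libraries lower the F1 mean. In controls alone, ENDO16 stood at 489.2 and 555.8 CPM in F1, 637.6 in F2 and 692.8 in F3. EVE stood there at 104.2 and 103.3, 209.6 and 124.4 CPM in the same order. Differences between sets were common in the table: the share of all features called was 70.5% for F2 against F1, 69.4% for F3 against F1 and 64.2% for F3 against F2, at an adjusted p under 0.05 in edgeR's quasi-likelihood test (Benjamini-Hochberg over all features tested).

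Against controls of the same set, ZnSO4 lowered EVE. In a model with terms for set and treatment over all 19 libraries, EVE fell by 0.59 in log2 units with ZnSO4 (SE 0.11, 95% interval -0.83 to -0.36, adjusted p = 0.0015), and it was 1 of the 5.42% of features called in that comparison. Summed ENDO16 had a log2 fold change of -0.63 with ZnSO4 (SE 0.22, interval -1.09 to -0.17), which did not pass (unadjusted p = 0.0089, adjusted p = 0.113). Its 3 features ranged from -0.64 to -0.62, and none passed (adjusted p = 0.107 to 0.130). So of the 4 members, 1 was called lower with ZnSO4. Without the F2 ZnSO4 library the ENDO16 change was -0.92 and passed (adjusted p = 0.0063), and without the F3 ZnSO4 library it was -0.84 (adjusted p = 0.0293). Without set F1 it was 0.07, and that of EVE was -0.24 (adjusted p = 0.170).

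Within set F1 the fall in transcript level was large for both genes. EVE was lower by a log2 fold change of -1.0 in the ZnSO4 libraries than in the controls (SE 0.09, adjusted p = 1.17e-09), a fall of 50.0%. Summed ENDO16 was lower by -1.53 (SE 0.08, adjusted p = 2.42e-14), which left 0.347 times the control level. In set F2 the same comparison gave -0.23 for EVE (interval -0.47 to 0.01, adjusted p = 0.442) and 0.25 for ENDO16 (0.03 to 0.47, adjusted p = 0.322). In set F3 it gave -0.23 for EVE (-0.48 to 0.01, adjusted p = 0.496) and -0.09 for ENDO16 (-0.31 to 0.13, adjusted p = 0.856). Calls within a set covered 8.81% of all features in F1, 2.52% in F2 and 2.56% in F3. The F2 and F3 values rest on 1 library per treatment, which is assumed to vary like the F1 pairs, with 4 residual degrees of freedom. The difference between the sets in the ZnSO4 effect passed the test for EVE (adjusted p = 3.52e-04) and for ENDO16 (adjusted p = 1.43e-10), and 3.75% of all features passed it.

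**Figure D2:**
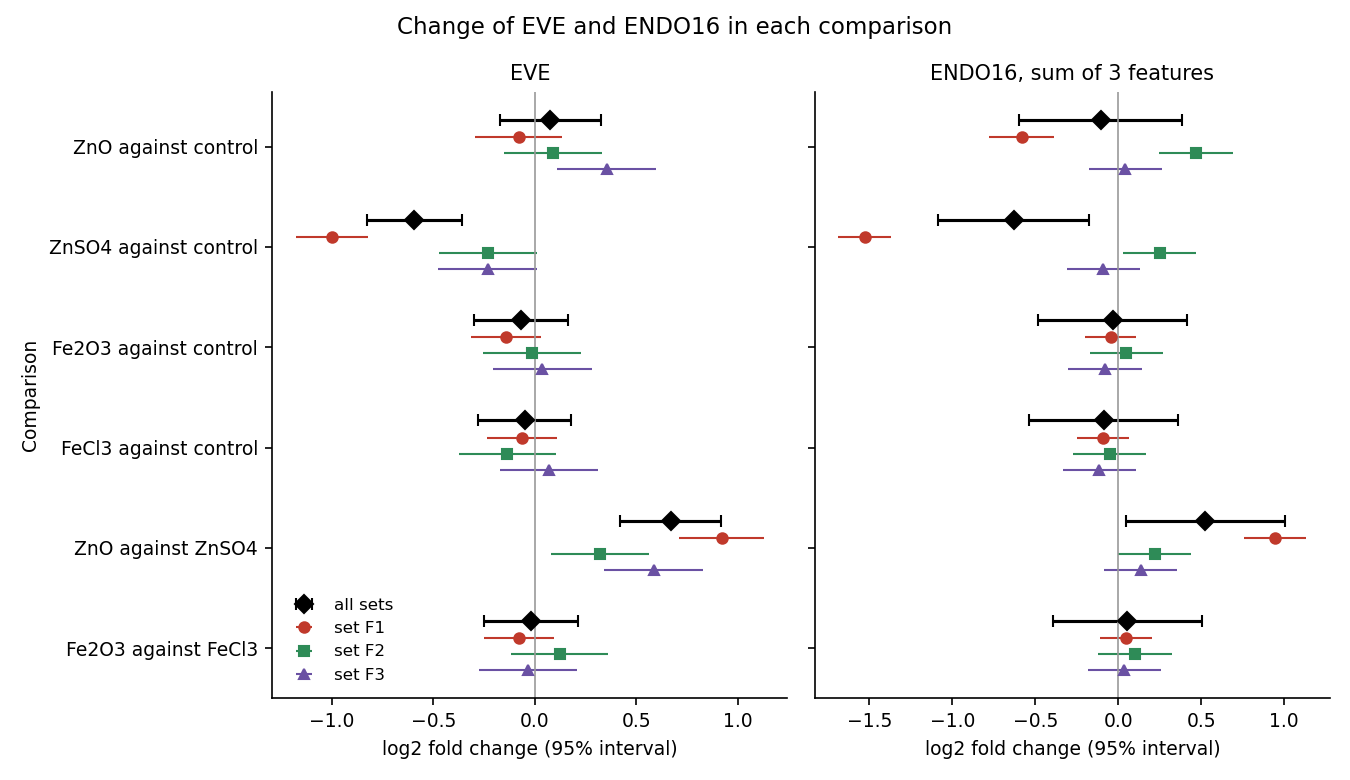
Log2 fold changes of EVE (left) and summed ENDO16 (right) in 6 comparisons, with 95% intervals; black diamonds are the fit to all sets, and coloured symbols the values within F1, F2 and F3. With ZnSO4, the F1 value of ENDO16 was -1.53, that of F2 0.25 and that of F3 -0.09, while the iron comparisons all lie near 0.

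Over all sets, EVE with ZnO lay near the control level, and its largest within-set change was 0.35 in F3, which was not called. ENDO16 with ZnO moved in opposite directions in 2 sets. The fit to all sets gave 0.08 for EVE (interval -0.17 to 0.33, adjusted p = 0.896) and -0.11 for ENDO16 (-0.60 to 0.39, adjusted p = 0.932), so none of the 4 members was called, where 2.09% of all features were. Within F1, ENDO16 was lower in the ZnO library than in the controls by -0.58 (SE 0.10, adjusted p = 1.52e-04). Within F2 it was higher by 0.47 (SE 0.11, adjusted p = 0.0229), and within F3 the change was 0.04 (adjusted p = 0.980). All 3 ENDO16 features shared this pattern, with -0.60 to -0.55 in F1 and 0.45 to 0.48 in F2, each called. EVE had -0.08 in F1, 0.09 in F2 and 0.35 in F3, none of them called (adjusted p = 0.802, 0.913 and 0.196). With ZnO, 4.64% of features were called in F1, 1.08% in F2 and 1.59% in F3. The ZnO effect differed between sets for ENDO16 (adjusted p = 1.15e-04) and did not pass for EVE (adjusted p = 0.456), against 1.42% of all features that passed. Each of these within-set ZnO values rests on a single ZnO library.

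The particle and the salt of zinc, matched by metal concentration, were then compared directly. EVE was higher with ZnO than with ZnSO4 by 0.67 in log2 units (SE 0.12; adjusted p = 0.0267), in a comparison that called 0.0779% of features. The ZnO library exceeded every ZnSO4 library of its set in F1, F2 and F3. Within sets the difference was 0.92 in F1 (adjusted p = 5.72e-07), 0.32 in F2 (interval 0.08 to 0.56, adjusted p = 0.403) and 0.59 in F3 (SE 0.12, adjusted p = 0.00895), and the difference between these values did not pass (adjusted p = 0.0841). Without set F1, EVE was still called, at 0.46 (adjusted p = 0.0119). The call over all sets was lost on leaving out 1 of 4 libraries, namely the F1 ZnSO4 replicates (adjusted p = 0.0647 and 0.103), the F2 ZnO library (0.0737) or the F3 ZnO library (0.186).

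Summed ENDO16 was 0.52 higher with ZnO than with ZnSO4 (interval 0.04 to 1.01) and did not pass (adjusted p = 0.672). Within F1 the difference was 0.95 (SE 0.09, adjusted p = 5.13e-08), within F2 0.22 (interval 0.00 to 0.44, adjusted p = 0.646) and within F3 0.13 (-0.09 to 0.35, adjusted p = 0.925). The between-set difference passed for ENDO16 (adjusted p = 5.83e-04), as it did for 2.47% of features. In this comparison 3.47% of features were called in F1, 0.569% in F2 and 0.721% in F3. Within sets, particle and salt were therefore called apart in F1 and F3 for EVE and in F1 for ENDO16.

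Neither iron treatment moved either gene by an amount these libraries could detect. EVE had a log2 fold change of -0.07 with Fe2O3 (interval -0.30 to 0.16) and -0.05 with FeCl3 (-0.28 to 0.18). Summed ENDO16 had -0.04 with Fe2O3 (-0.48 to 0.41) and -0.09 with FeCl3 (-0.54 to 0.36). Between Fe2O3 and FeCl3 the difference was -0.02 for EVE (-0.25 to 0.21) and 0.05 for ENDO16 (-0.39 to 0.50). All 6 adjusted p-values were at least 0.998, and the within-set iron changes stayed between -0.14 and 0.12. Few features responded to iron at all: 0% were called with Fe2O3, 0.027% with FeCl3 and 0.0732% between Fe2O3 and FeCl3. With Fe2O3, 1821 features had an unadjusted p under 0.05, and DESeq2 also called 0. A difference between sets in the iron effect was called for 0.00159% of features with Fe2O3 and 0% with FeCl3, and no member was among them.

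Set against both iron treatments, the mean of both zinc treatments gave -0.20 for EVE (SE 0.08, adjusted p = 0.185) and -0.31 for summed ENDO16 (adjusted p = 0.349), where 7.46% of all features were called. The between-set test passed for both genes (adjusted p = 0.00709 for EVE and 1.54e-10 for ENDO16), among 4.18% of all features. The F1 value was -0.99 for ENDO16, with 0.36 in F2 (adjusted p = 0.00462) and 0.07 in F3. For EVE the F1 value was -0.44, with 0.004 in F2 and 0.008 in F3.

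The other endoderm genes were taken from a list of specification factors, of which 2 features carried a name: GATAE, a GATA-family transcription factor, and BLIMP1KROX, a zinc finger transcription factor. Both act in the endoderm gene network of S. purpuratus. Neither was called with ZnSO4 over all sets (0 of 2), with -1.05 for BLIMP1KROX (SE 0.41, adjusted p = 0.169) and -0.38 for GATAE (SE 0.28, adjusted p = 0.585), beside a median of 0.01 over all features.

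Within F1, however, BLIMP1KROX stood at 443.9 CPM in the ZnO library and at 66.9 and 63.1 CPM in the ZnSO4 libraries, against 519.5 and 565.3 CPM in the control libraries. GATAE stood at 64.7 CPM with ZnO and at 22.1 and 24.4 CPM with ZnSO4, against 68.1 and 77.9 CPM in the controls. For both genes the ZnSO4 libraries of F1 were far below all others of the set, whose iron libraries were at 494.2 to 526.2 CPM for BLIMP1KROX and at 65.2 to 75.2 CPM for GATAE. In F2, BLIMP1KROX stood at 454.1 CPM with ZnO and 408.2 with ZnSO4, against 443.3 in the control, and in F3 at 573.7 and 653.4, against 549.6. GATAE in F2 stood at 69.2 CPM with ZnO and 73.3 with ZnSO4, against 49.1 in the control, and in F3 at 79.5 and 106.2, against 80.2. Outside F1, no zinc library lay far below its control for either gene, and GATAE was higher with ZnSO4 in F2.

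The ZnSO4 change within F1 was -3.06 for BLIMP1KROX (adjusted p = 6.20e-21) and -1.65 for GATAE (adjusted p = 2.73e-13). In F2 it was -0.12 for BLIMP1KROX (adjusted p = 0.713) and 0.58 for GATAE (adjusted p = 0.00882), and in F3 0.25 (adjusted p = 0.273) and 0.41 (adjusted p = 0.098). The difference between sets passed for both (adjusted p = 7.19e-17 for BLIMP1KROX and 2.17e-11 for GATAE). ZnO against ZnSO4 within F1 gave 2.77 for BLIMP1KROX and 1.48 for GATAE (adjusted p = 2.94e-18 and 3.99e-10). With ZnO, BLIMP1KROX had -0.29 in F1 (adjusted p = 0.0512), 0.03 in F2 and 0.06 in F3, and GATAE had -0.17 in F1, 0.50 in F2 (adjusted p = 0.0588) and -0.01 in F3, none of them called. All 6 endoderm features, the 4 members and both factors, were called lower with ZnSO4 in F1, where 3112 of 62865 features were. In F2 and F3 none of the 6 was called lower, beside 837 features in F2 and 1031 in F3, so that 0 of 6 is near the share of the table there. The 3 ENDO16 features among the 6 moved as near copies and do not count as separate genes.

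**Figure D3:**
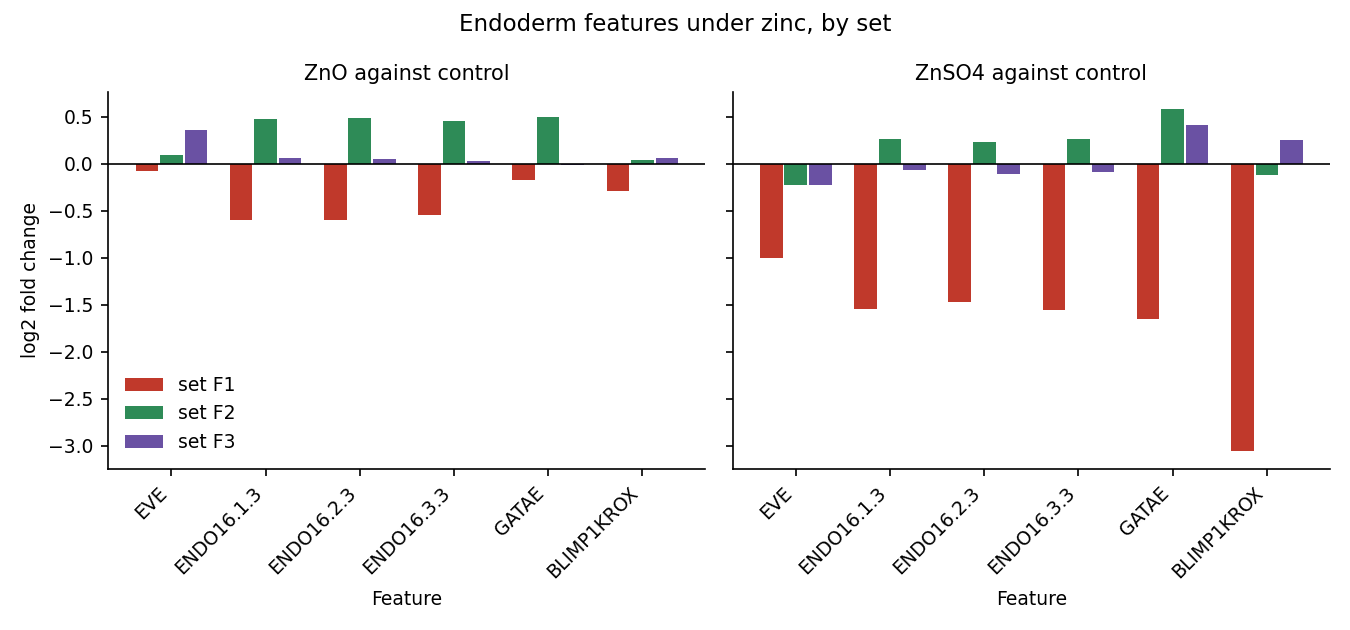
Log2 fold changes of the 4 members and of GATAE and BLIMP1KROX with ZnO (left) and ZnSO4 (right) against control within each set. Bars start at 0 and are drawn without error bars. Each set holds 1 or 2 libraries per treatment. With ZnSO4 the F1 bars run from -1.0 (EVE) to -3.06 (BLIMP1KROX), while those of F2 and F3 lie between -0.23 and 0.58.

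How closely the members moved together was described across libraries after each set's mean log2 CPM had been subtracted. These correlations are descriptions over 19 libraries that share treatments. The 3 ENDO16 features were near copies of each other (Pearson r 0.996 to 0.998), and they stayed so without the F1 ZnSO4 libraries (r 0.984 to 0.989, n = 17). EVE and summed ENDO16 had r = 0.88 (Spearman's rho 0.65), but without the F1 ZnSO4 libraries r was 0.23. The relation between the genes therefore rested on those 2 libraries.

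**Figure D4:**
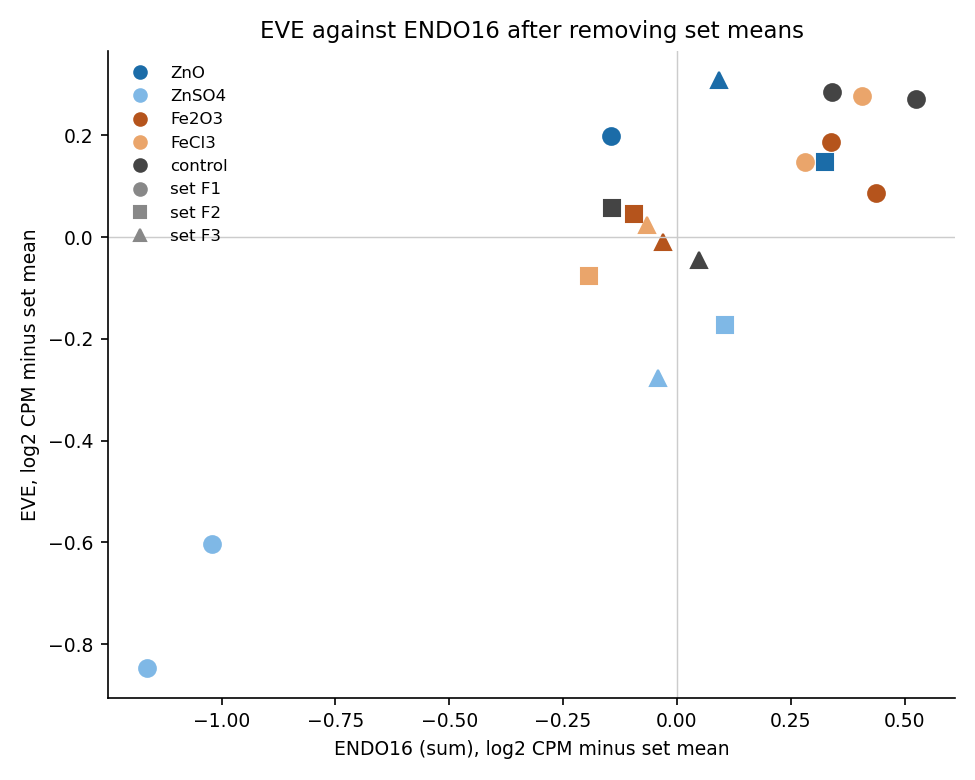
EVE against summed ENDO16, both as log2 CPM minus the mean of the set; colours mark treatments and shapes mark sets, and each point is 1 library. Both F1 ZnSO4 libraries lie apart at the lower left; r is 0.88 over 19 libraries and 0.23 over the other 17.

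Among 505 features with a gene name and a mean log2 CPM of at least 1, the 5 most like EVE in this measure were TBA1.6.12, an alpha-tubulin (r = 0.95), BLIMP1KROX (0.90), CHRD, the secreted BMP antagonist chordin (0.89), ARS.2.5, an arylsulfatase of the aboral ectoderm (0.88), and NDUFS7, a subunit of respiratory complex I (0.87). Without the F1 ZnSO4 libraries the values were 0.73 for TBA1.6.12, -0.02 for BLIMP1KROX, 0.35 for CHRD, 0.52 for ARS.2.5 and 0.70 for NDUFS7. The most opposed to EVE were HSP74.2.2 (-0.84) and HSP72.1.3 (-0.83), both named for heat shock proteins, and DYNLRB2, a dynein light chain (-0.81). Those values became -0.13, 0.16 and -0.02 without the F1 ZnSO4 libraries. TBA1.6.12 and NDUFS7 kept the highest values of the 5 without those 2 libraries.

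The features most like summed ENDO16 were GATAE (r = 0.95), BLIMP1KROX (0.94), CHK1, the checkpoint kinase (0.92), REJ7, of the receptor for egg jelly family (0.92), and CHRD (0.91). Without the F1 ZnSO4 libraries they had 0.59 for GATAE, 0.60 for BLIMP1KROX, 0.77 for CHK1, 0.57 for REJ7 and 0.39 for CHRD. The most opposed were DYNLRB2 (-0.95), CYP51, a sterol demethylase (-0.94), and HSP72.2.3 (-0.89), with -0.73, -0.80 and -0.40 without those libraries. Of all 38706 features at that level, 0.129% reached r = 0.9 with EVE and 0.594% with ENDO16. BLIMP1KROX and CHRD were on both lists, and only TBA1.6.12 among the gene names reached 0.9 with EVE.

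The counts of ENDO16 were divided over its 3 features in a proportion that differed between sets. An effect of treatment on these shares within sets was not tested. Within each library, ENDO16.1.3 took 30.8 to 32.5% of the ENDO16 counts in F1 and 30.8 to 31.3% in F2, but 33.3 to 34.4% in F3. ENDO16.2.3 took 29.8 to 31.5% in F1 and 29.4 to 31.05% in F2, but 26.2 to 26.8% in F3. ENDO16.3.3 took 37.0 to 39.1% in F1, 37.9 to 39.4% in F2 and 39.0 to 39.9% in F3. For ENDO16.1.3 and ENDO16.2.3 the F3 libraries did not overlap the others, while for ENDO16.3.3 all sets overlapped. In the F1 ZnSO4 libraries, where the summed level was lowest, ENDO16.1.3 held 30.8 and 31.4%, against 31.9 and 31.3% in the F1 controls.

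**Figure D5:**
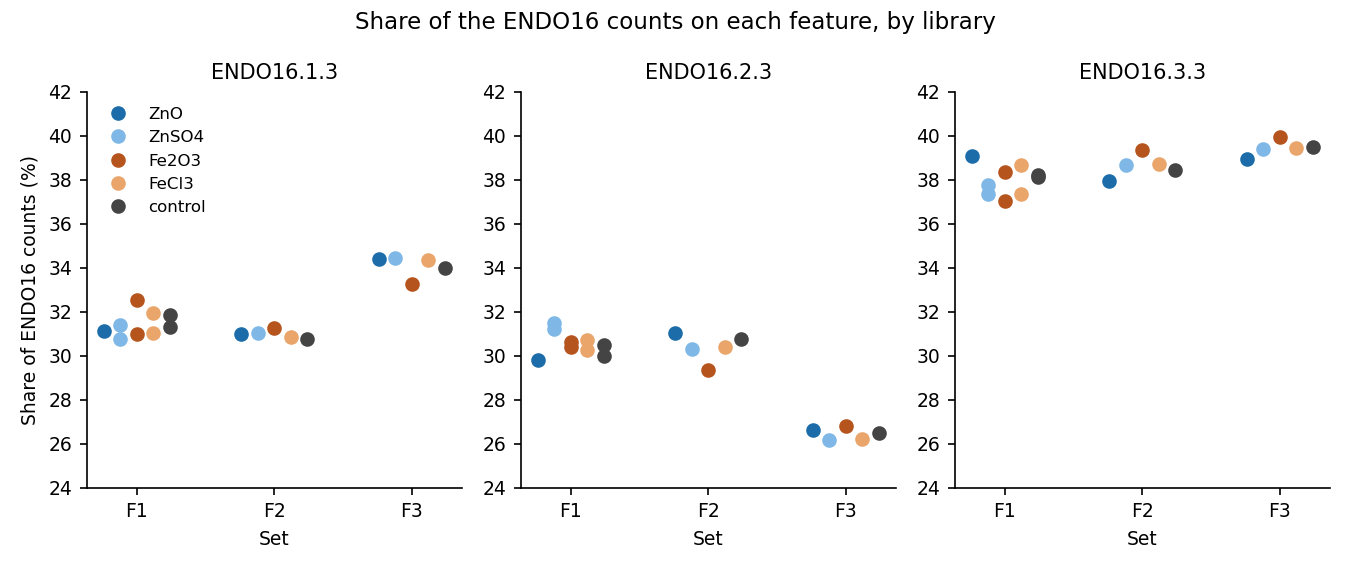
Share of each library's ENDO16 counts that fell on ENDO16.1.3, ENDO16.2.3 and ENDO16.3.3, in percent, by set; points are libraries, coloured by treatment, and the axis runs from 24 to 42%. In F3 the share is 33.3 to 34.4% for ENDO16.1.3 and 26.2 to 26.8% for ENDO16.2.3, apart from the other sets.

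Such shifts were frequent. Of the 221 features that share a gene name with another feature and had a mean count of at least 100, 21.7% had a share in F3 that did not overlap F1 and F2. Treatments cannot be judged by overlap in this way, since each has libraries in every set. How reads that match several contigs were assigned is not given in the sources used here, so the values of single ENDO16 features are less certain than their sum.

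Pathways that act on the endoderm, and homeobox genes apart from them, were read from lists of names. Over all sets, 2.09% of all features were called with ZnO and 5.42% with ZnSO4. In the Wnt list, 1 of 5 features was called with ZnSO4 over all sets. The ligand WNT2 was higher by 0.74 (SE 0.14, adjusted p = 0.00153), with within-set values of 0.42 (F1), 0.92 (F2) and 1.08 (F3). None of the 5 was called with ZnO over all sets, where WNT2 was at 0.53 (adjusted p = 0.0705). Within sets, WNT2 with ZnO had 0.99 (F1), 0.20 (F2) and 0.28 (F3), each from a single ZnO library. In the Notch and Hedgehog list, 1 of 5 was called with each zinc treatment, POFUT1.2.2, named for a protein O-fucosyltransferase, which was lower by -0.53 with ZnO (adjusted p = 0.0228) and by -0.53 with ZnSO4 (adjusted p = 0.00461). Of 6 other homeobox features, 4 were lower with each zinc treatment. This list is not one of endoderm genes: DLX and HMX are counted again with the ectoderm markers, and NK2.1 with the apical plate markers. HMB1 was at -2.10 with ZnO and -2.98 with ZnSO4 (adjusted p = 4.31e-06 and 1.86e-09), and DLX at -1.56 and -1.94 (adjusted p = 0.00947 and 1.58e-04). HMX was at -1.24 with ZnSO4 (adjusted p = 0.00162) and NK2.1 at -1.29 with ZnO (adjusted p = 0.0269). HMB1 and DLX were called lower in every set with both zinc treatments: with ZnSO4, HMB1 had -3.09 within F1, -2.38 within F2 and -3.39 within F3.

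Markers of other cell types were read beside the lower endoderm transcript levels of the F1 ZnSO4 libraries, and their part in that result was not tested. Within F1, 6 of 12 ectoderm and 3 of 8 skeletogenic features were called lower with ZnSO4. So were 2 of 3 pigment and immune cell features and 8 of 16 cilia features, beside 3112 of all 62865 features. In that comparison 2 ectoderm features and 1 cilia feature were called higher, and 0 of 2 muscle features were called. Of 12 ectoderm features, 2 were called higher and 4 lower with ZnSO4 over all sets, and their summed level in F1 was 3812 CPM with ZnO and 2349 to 2576 with ZnSO4, against 3832 to 4082 in controls. In F2 the sum was 3172 with ZnO and 2883 with ZnSO4, against 2724 in the control, and in F3 4595 and 3595, against 3661. The single features below are from the fit over all sets. CHRD was lower by -3.20 (adjusted p = 6.33e-04), ARS.3.5 by -1.19 (adjusted p = 0.0371), and DLX and HMX as above, while UNIV was higher by 0.38 (adjusted p = 0.00119) and ACT1.1.2 by 0.47 (adjusted p = 0.0225). With ZnO, 4 ectoderm features were higher (ACT1.2.2, UNIV, EGIP and ACT1.1.2, by 0.35 to 0.64) and DLX was lower.

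Of 8 skeletogenic features, 4 were lower with ZnSO4 over all sets: the spicule matrix genes SM30A.1.2 (-0.86, adjusted p = 1.07e-04), SM30 (-0.60), SM30A.2.2 (-0.57) and SM29 (-0.24). With ZnO, SM30A.1.2 (-0.84) and SM30A.2.2 (-0.63) were lower and PM27 (0.34) was higher. The summed level of the 8 features in F1 was 1301 CPM with ZnO and 1122 to 1134 with ZnSO4, against 1213 to 1217 in controls. With FeCl3 it was 1071 to 1133 in F1, as low as with ZnSO4. In F2 the sum was 1188 with ZnO and 1292 with ZnSO4, against 1193 in the control, and in F3 1398 and 1248, against 1253. Over all sets, none of the 3 pigment and immune cell features was called with either zinc treatment. Their sum in F1 was 215.4 CPM with ZnO and 198.9 to 201.9 with ZnSO4, against 251.3 to 251.8 in controls. In F2 it was 440.0 with ZnO and 432.5 with ZnSO4, against 439.0 in the control, and in F3 465.8 and 380.9, against 364.3. Of 16 cilia features, TBA1.3.12 (-1.01) and TBA1.6.12 (-0.80) were lower with ZnSO4 over all sets, and none was called with ZnO over all sets. Of 2 muscle features, ACTC.1.2 was higher with ZnO, by 0.27 (adjusted p = 0.0344), and neither was called with ZnSO4.

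In the F1 ZnSO4 libraries, where all 6 endoderm features were low, the apical plate markers stood at the control level. In the fit over all sets, the 3 apical plate and neuron features were lower with ZnO, with -1.29 for the homeobox gene NK2.1, -2.35 for ANKAT-1.1.2 and -2.03 for ANKAT-1.2.2. In that fit, which averages over the sets, 0 of the 3 features were called with ZnSO4. Their summed level was 20.7 CPM in the F1 ZnO library and 94.7 to 98.6 CPM in the F1 ZnSO4 libraries, against 77.7 to 99.5 CPM in the F1 controls. In F2 it was 20.8 with ZnO and 15.3 with ZnSO4, against 68.7 in the control, and in F3 12.6 and 9.19, against 75.1. The other zinc libraries thus lay at 9.19 to 20.8 CPM, below every control library. ANKAT-1.2.2 had 0 counts in the F3 ZnSO4 library, and among the other markers ARS.4.5, ARS.5.5 and SM37.2.2 had 0 counts in some libraries. ANKAT-1.2.2 was also lower with ZnO than with ZnSO4, by -2.17 (adjusted p = 0.0366).

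Exposure and stress genes were read in the same libraries, beside 2.09% of all features called with ZnO and 5.42% with ZnSO4 over all sets. Contigs that share a name, as those of metallothionein, HSP74 and HSP72 do, do not count as separate genes. All 23 metallothionein features, named for zinc-binding proteins, were called higher with ZnO and with ZnSO4, and their summed level in F1 was 11390 CPM with ZnO and 10780 to 11480 CPM with ZnSO4, against 5702 to 5707 CPM in controls. With ZnSO4 the sum was 11810 CPM in F2, against 3775 in the control, and 12680 CPM in F3, against 6842. The median log2 fold change with ZnSO4 against controls of the same set was 0.90 in F1, 1.64 in F2 and 0.87 in F3. Of 6 heat shock features, 0 were called with ZnO and 5 were called higher with ZnSO4: HSP74.1.2 by 2.99, HSP74.2.2 by 1.76, HSP72.2.3 by 0.76, HSP72.3.3 by 0.40 and HSP72.1.3 by 0.39. Within sets these 5 were called with ZnSO4 in F1, where 8.81% of all features were called. In F2 and in F3 0 of 6 were called, which is near the shares of all features there (2.52% and 2.56%). Their summed level in F1 was 378.3 CPM with ZnO and 474.1 to 503.6 with ZnSO4, against 366.9 to 368.2 in controls. In F2 it was 157.1 with ZnO and 171.1 with ZnSO4, against 153.5 in the control, and in F3 439.7 and 439.2, against 491.6. The part of these genes in the F1 result was not tested.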

How the data were processed

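Poly(A) RNA of whole Paracentrotus lividus embryos was sequenced in 19 libraries. The authors deposited 1 table of counts, whole numbers without normalization, for 63389 features. Per the submitters' processing notes, which give no roles, BWA 0.7.12-r1039, SAMtools 1.3.1 and Trim Galore 0.4.0 are listed. The sources used here do not give the assembly, the program that made the counts, the strand handling or the fate of reads with several matches. That fate could divide counts between the ENDO16 features, so their counts were also summed into 1 row and the whole table was refitted. Features are named as in the table; no sequence or annotation was used.

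Counts were fitted with edgeR 4.0.16 (limma 3.58.1, R 4.3.3) by the quasi-likelihood test, with TMM scaling, filterByExpr on treatment and terms for set and treatment (12 residual degrees of freedom). A feature was called at a Benjamini-Hochberg adjusted p under 0.05 over all 62865 features tested. Effects within sets and their differences came from a model with set-by-treatment terms, with 4 residual degrees of freedom, all from the F1 pairs. Standard errors were derived from the log2 fold change and its F statistic. Log2 CPM used a prior count of 2. The fit was also run on simulated counts, in which the ZnSO4 effect of a feature was the same in every set. That run does not bear on effects that differ between sets. Alternatives were DESeq2 1.42.0, RLE scaling, no filter, a CPM of at least 2 in 4 libraries, no set term, a replicate block, F1 libraries summed, each set left out and each library left out. Likeness was ranked by Pearson's r of set-centred log2 CPM, taking the 5 highest and 3 lowest gene-named features, 1 per name. List members were named where called, at most 6 per list. Members and lists were chosen with earlier results of these data known, and some spellings, the metallothionein list and the heat shock list were added after the feature names had been seen. A feature of 1 list is not reported here.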

Additional observations from a re-analysis of the deposited data

Results flagged for a closer look

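In each case below the same contrast gave different effects in sets F1, F2 and F3, and the set-by-treatment terms passed edgeR's quasi-likelihood test with Benjamini-Hochberg adjustment. For EVE this held for ZnSO4 against control (adjusted p = 3.523e-04; log2 fold changes -1.0 in F1, -0.23 in F2 and -0.23 in F3). It also held for both zinc treatments against both iron treatments (adjusted p = 0.007094; -0.44, 0.004 and 0.008 in the same order). For summed ENDO16 it held for ZnO against control (adjusted p = 1.153e-04; -0.58, 0.47 and 0.04), for ZnSO4 against control (adjusted p = 1.43e-10; -1.53, 0.25 and -0.09), for ZnO against ZnSO4 (adjusted p = 5.83e-04; 0.95, 0.22 and 0.13) and for both zinc treatments against both iron treatments (adjusted p = 1.543e-10; -0.99, 0.36 and 0.07). The contrasts share libraries, so these 6 differences are not separate pieces of evidence. In F2 and F3 each value rests on 1 library per treatment, and what distinguishes the sets is not given in the labels. Dixon's criterion for a single outlying library marked 0 of the 20 groups tested for EVE and ENDO16; it looks for 1 library at a time and says nothing of the 2 F1 ZnSO4 libraries, which were low together.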

How the results depend on the processing

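Values below are log2 fold changes. The direction of EVE with ZnSO4 and between ZnO and ZnSO4, and of summed ENDO16 between ZnO and ZnSO4, was the same under all 29 alternatives run. EVE with ZnSO4 lost its call without the set term (-0.48) and without set F1 (-0.24). EVE with ZnO against ZnSO4 lost it without the set term (0.72), without set F3 (0.69) and with the F1 libraries of a treatment summed (0.59), and ran over 0.553 to 0.821 on leaving out 1 library. ENDO16 with ZnSO4 gained a call without set F2 (-0.98), reversed without set F1 (0.071), and ran over -0.915 to -0.402 on leaving out 1 library. Both zinc against both iron treatments gained a call for ENDO16 without set F2 (-0.59) and reversed without set F1 (0.22 for ENDO16, 0.0050 for EVE); EVE there ran over -0.264 to -0.128 and gained a call without the F2 ZnSO4 library (adjusted p = 0.0231). The cause was not tested.

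Other reversals were of values that passed in no fit. ENDO16 with ZnO became 0.13 without the set term (0.14, 0.12 and 0.12 for its 3 features), 0.25 without set F1 and 0.045 with the replicate block. EVE became 0.012 with Fe2O3 without set F1, and -0.032 with ZnO without set F3. Between Fe2O3 and FeCl3, EVE became 0.010 without the set term, 0.053 without set F1 and 0.0024 with the F1 libraries summed. On leaving out 1 library, EVE ran over -0.119 to 0.0128 with FeCl3 and -0.0826 to 0.0449 between the iron forms. Summed ENDO16 ran over -0.255 to 0.0451 with ZnO, -0.161 to 0.0892 with Fe2O3, -0.214 to 0.0354 with FeCl3 and -0.0601 to 0.163 between the iron forms. For its features, ENDO16.1.3, ENDO16.2.3 and ENDO16.3.3, the ranges were -0.255 to 0.0568, -0.257 to 0.0765, -0.264 to 0.0155 with ZnO; -0.16 to 0.0891, -0.157 to 0.0872, -0.165 to 0.0907 with Fe2O3; -0.213 to 0.0341, -0.207 to 0.0359, -0.22 to 0.0349 with FeCl3; -0.0657 to 0.173, -0.0611 to 0.166, -0.0574 to 0.153 between the iron forms.

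DESeq2 called 193 features between ZnO and ZnSO4, against 49 by edgeR. Without the set term the calls were 30 with ZnO, 116 with ZnSO4, 0 with FeCl3, 0 in both particle-salt comparisons and 334 for zinc against iron. F1 libraries with the same replicate number did not deviate together (correlations -0.0723 to 0.0495), so the numbers were not taken as pairs; with the replicate block, which left out the F1 ZnO library, EVE was at -0.59 with ZnSO4 (adjusted p = 0.00232) and 0.69 between ZnO and ZnSO4 (adjusted p = 0.0251), and ENDO16 at -0.61 with ZnSO4 (adjusted p = 0.137). Counting error was small (EVE had at least 1462 counts per library), so the number of libraries per set, not depth, limits these values.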
